A study of Drosophila melanogaster with 2 samples.

Results

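This is an account of 7 Drosophila melanogaster genes for RNA-binding proteins of the nervous system (elav, fne, Rbp9, Imp, Syp, msi and brat) in a map of where the tagged protein CG32772 binds DNA. The genes were taken from a list of names, out of 13968 protein-coding genes, and all 7 were found in the annotation. The method was ChIP-seq, in which an antibody pulls down a protein with the DNA fixed to it and sequencing shows where that DNA came from. CG32772, a predicted zinc finger protein, carried the fluorescent tag eGFP in the transgenic fly strain CG32772-GFP, and an antibody against GFP was used on whole embryos aged 0 to 24 h. There was 1 group of 2 biological replicates, each 1 library, and no library of another genotype, treatment or age was analysed here. What drives the tagged insertion is not given in the sources used here. Embryos were used whole, so binding cannot be assigned to neurons or to any other cell type, and peak lists hold no expression values with which the neural label of these genes could be checked.

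The 7 proteins act on RNA after transcription, while the values here concern the DNA of their genes. ELAV is the founding member of a family of neuronal proteins that direct alternative splicing and the use of distal polyadenylation sites, and it has long served as a marker of neurons in the fly. The proteins encoded by fne and Rbp9 are its close relatives. Imp, the fly IGF-II mRNA-binding protein, and Syp, the fly Syncrip, form opposing gradients over time in neural stem cells (neuroblasts) and help to set which neurons are born early and late. The protein of msi, Musashi, represses translation in sensory organ precursors, and that of brat, Brain tumor, is a translational repressor passed to the neuroblast daughter that differentiates.

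The deposited values are peak lists on the dm6 assembly. Each peak has a summit and a signal, the authors' own value with a scale that is not stated, so it serves here to order the peaks of 1 list and to set the values of 1 site side by side. The list called from both libraries under the stricter rule, with 4699 peaks on the chromosome arms, is called the main list. Replicate 1 had 3012 such peaks in its own list and replicate 2 had 3537. Read counts were not analysed, and the depth of each library is unknown. A gene counted as bound at its promoter when at least 1 summit was no more than 500 bp from an annotated transcription start site of the gene, and its wider window was the gene body with 5 kb on either side.

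The strongest CG32772 sites of the group, with main-list signals above 500, lay upstream of msi and elav and inside brat. Of the 4699 main-list summits, 218 had such a signal. The share of all genes with a site of that strength was not computed. Sites within fne and Imp reached signals of 160.1 and 125, modestly above the main-list median of 115. In the libraries' own lists, with medians of 77.6 and 77.8, the Imp site was below the median in both (60.6 and 60.0). The fne site was below it in replicate 1 (62.6) and above it in replicate 2 (106). The main-list site within Rbp9 was below the main-list median at 78.1, and Syp had no main-list site. The main list held 16 summits in the 7 windows, and 3 of 7 genes (elav, Imp and msi) had one at a promoter, against 17.1% of all protein-coding genes and 24.2% of those of at least 20 kb. The sequences below run from 50 bp before to 50 bp after the summit, for the 6 of those 16 summits that were in both libraries' own lists and lay at a listed gene rather than at a neighbour's start site. They are shown because both libraries held them and so that their base composition can be compared. All are written 5′ to 3′ along the strand of its gene, from the RefSeq copy of the dm6 assembly, and capitals mark unbroken runs of 6 or more A or T.
elav, upstream of the first start site (chrX:523426-523526, minus strand): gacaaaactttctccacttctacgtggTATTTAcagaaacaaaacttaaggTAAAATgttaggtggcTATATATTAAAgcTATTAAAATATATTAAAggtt
msi, upstream of the first start site (chr3R:25515835-25515935, plus strand): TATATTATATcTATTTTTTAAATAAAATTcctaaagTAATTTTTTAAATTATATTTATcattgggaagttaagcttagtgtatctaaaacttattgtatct
brat, intron (chr2L:19165104-19165204, plus strand): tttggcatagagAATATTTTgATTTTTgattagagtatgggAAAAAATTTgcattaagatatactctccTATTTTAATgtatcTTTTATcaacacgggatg
fne, intron (chrX:12925924-12926024, plus strand): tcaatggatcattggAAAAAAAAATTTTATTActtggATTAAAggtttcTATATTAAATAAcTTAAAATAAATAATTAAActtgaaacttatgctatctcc
Imp, intron (chrX:10805849-10805949, minus strand): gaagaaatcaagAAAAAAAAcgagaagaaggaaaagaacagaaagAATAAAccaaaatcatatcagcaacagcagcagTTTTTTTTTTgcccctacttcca
elav, first intron (chrX:522587-522687, minus strand): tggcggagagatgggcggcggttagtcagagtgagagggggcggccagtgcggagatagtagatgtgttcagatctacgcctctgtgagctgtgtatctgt

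Of these sequences, 4 were poorer in G and C than most bound sites and the second elav site was far richer. GC content over the stretches shown was 16.8% at msi, 20.8% at fne and 27.7% at both the elav upstream site and brat, against a median of 33.7% over all main-list summits (quartiles 27.7% and 42.6%). The Imp site, at 33.7%, had the median value. At the elav intron site it was 57.4%, above the 95th percentile of all main-list summits (55.4%), and the sequence held 0 runs of 6 A or T. Such runs covered 53 bases at fne, 50 at msi, 40 at the elav upstream site, 38 at brat and 24 at Imp, where the main-list median was 24 and the median 500 bp to the right of the summits was 12. Over all 16 summits, 6 were at or below the lower quartile of GC content and 5 above the upper quartile.

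**Figure D1:**
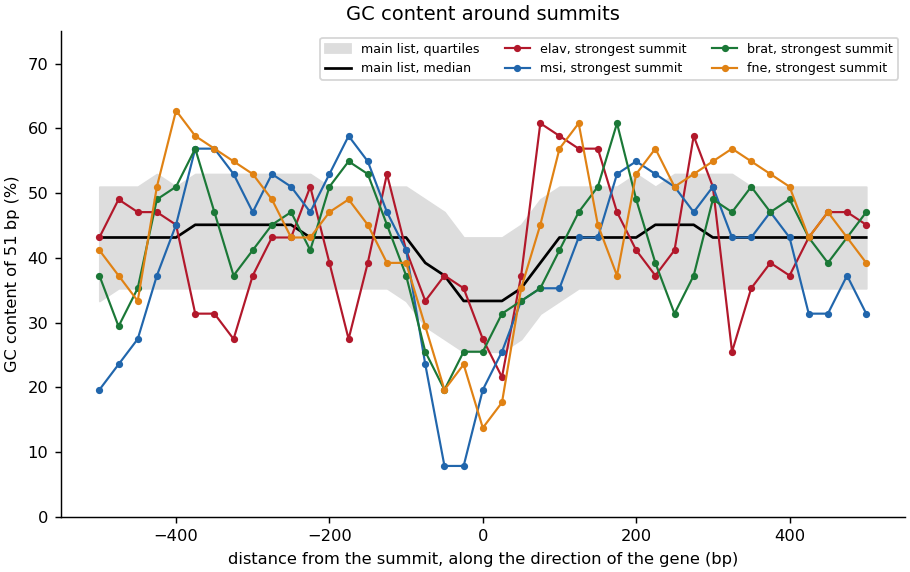
GC content in steps of 25 bp (percent of 51 bp) against distance from the summit for the strongest sites of elav, msi, brat and fne, with the median and quartiles of all main-list summits in black and grey. At the summit the fne value was 13.7%, msi 19.6%, brat 25.5% and elav 27.5%, against a main-list median of 33.3%.

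The ELAV family came first in the order of roles, and its 3 genes differed. elav (FBgn0260400; X, positions 509235 to 523226, minus strand) had its strongest summit 250 bp upstream of the start shared by 3 of its 4 transcripts. There the main-list signal was 678 (rank 123 of 4746), against 339.5 in replicate 1 (rank 119) and 343 in replicate 2 (rank 126). Ranked by strongest promoter signal, elav stood at place 115 of 2383 genes bound at a promoter. The libraries placed this summit 16 bp apart, which was also the median over main-list peaks in both own lists. The same annotated start is shared with a non-coding gene on the same strand, lncRNA:enrr, so the peak is upstream of both.

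A weaker elav summit lay 589 bp downstream of the same start, in the first intron and just outside the promoter limit. It had a main-list signal of 164 (rank 1490), with 101.2 in replicate 1 and 67.2 in replicate 2, a ratio of 1.51 between the libraries. Over all main-list peaks in both own lists the middle 50% of such ratios ran from 0.784 to 1.10, so this site differed more between the libraries than most. The start of elav-RB, 2941 bp into the gene, had no main-list summit within 500 bp. The next main-list summit upstream of elav was 95.5 kb away and the next downstream was 9.50 kb past the gene.

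fne (FBgn0086675; X, 12917477 to 12950417, plus strand), which encodes a paralogue of ELAV, had 1 main-list summit, in an intron 8490 bp from the nearest of its 4 start sites. The main-list signal of 160.1 (rank 1524) stood beside 62.6 in replicate 1 (rank 2022) and 106 in replicate 2 (rank 1124), so the library ratio was 0.593, in the opposite sense to the elav intron site. Near the start shared by 5 of the 11 fne transcripts, 485 bp upstream, a call with a signal of 71.2 was in the other joint list but not in the main one. In the ranked lists of all calls it had a signal of 26.9 in replicate 1 and 36.9 in replicate 2.

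Rbp9 (FBgn0010263; 2L, 2954762 to 2968434, plus strand), whose protein is made in neurons and in the female germ line, had 2 summits in its window, and the stronger belonged by position to its neighbours. That summit lay 4371 bp past the end of the gene, 86 bp from the start of gammaTub23C, which encodes a gamma-tubulin, and 297 bp from that of Rrp1, a DNA repair gene. It reached 279 in the main list, with library signals of 148 and 134 in replicates 1 and 2. Within Rbp9 the only main-list summit was intronic, 929 bp downstream of the nearest start, with a main-list signal of 78.1 (rank 3815). In neither library's own list was it present, and among all ranked calls it had a signal of 35.1 in replicate 1 and 45.1 in replicate 2. Of the 3 relatives, elav therefore had a strong promoter site and fne an intronic site in both libraries' own lists. Rbp9 had a site of its own in neither. The fne signal was below the list median in replicate 1 (77.6) and above it in replicate 2 (77.8).

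**Figure D2:**
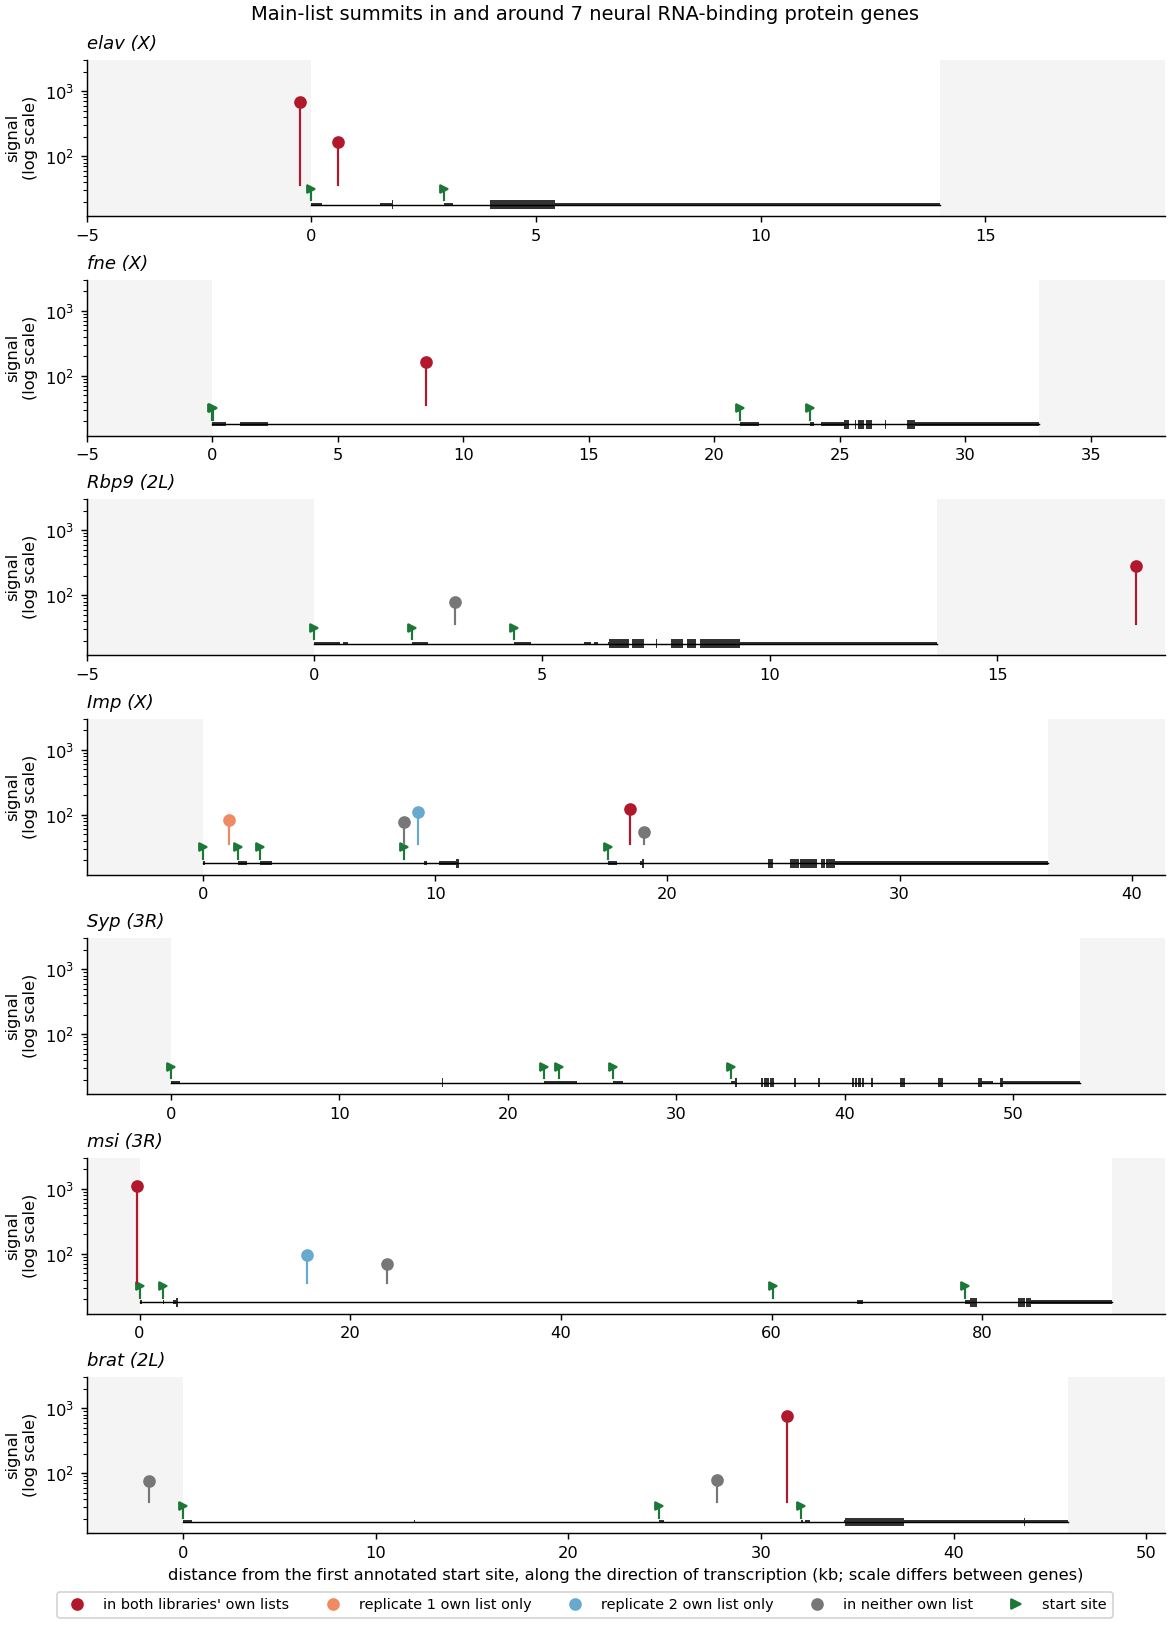
Main-list summits (points; height is the authors' signal on a log scale) against distance from the first start site in kb, 1 panel for each gene. Boxes are exons (tall where coding), green flags are start sites, grey marks the 5 kb on either side, and colours give the libraries' own lists that held the peak. The 3 tall red points are msi at 1119, brat at 758 and elav at 678, and the Syp panel has no point.

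The pair of temporal factors also differed. Imp (FBgn0285926; X, 10787869 to 10824277, minus strand) had 5 main-list summits, all inside the gene, with signals from 53.9 to 125, where the main-list median was 115. The strongest was intronic, 957 bp downstream of the start of 4 of its 12 transcripts, with a main-list signal of 125 and 60.6 and 60.0 in replicates 1 and 2. It was the only Imp summit in both libraries' own lists. At the promoters there were 2 summits. One lay 387 bp upstream of a start 1491 bp into the gene and had a signal of 83.3 (rank 3576). In replicate 1's own list it stood at rank 2623, while replicate 2 had only a call of 32.6 below the authors' threshold. The other, 10 bp downstream of the start of Imp-RD and Imp-RE, had a signal of 77.7 and was in neither own list.

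The remaining Imp summits lay 631 bp and 1587 bp downstream of start sites. The former was in an intron, with a signal of 112, and of the own lists it was in that of replicate 2 at 63.9. The latter was in coding sequence close to the end of an exon, with a run of 14 C in the intron that follows. It had the lowest signal of the 16 summits (53.9) and was in neither own list. Replicate 2 alone listed further Imp summits in introns, with signals of 75.4, 67.6 and 4.80, and the peaks of 67.6 and 4.80 overlapped. The other joint list held 8 summits in the window. The summits fell into 3 places: counting those within 1 kb of each other once left 3.

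Syp (FBgn0038826; 3R, 20756729 to 20810726, plus strand) had 0 summits in the main list and 0 in each library's own list, over a window of 64.0 kb with 5 start sites. All calls, below the threshold included, were somewhat denser than on the arm in replicate 1 and sparser in replicate 2. Replicate 1 had 68, or 10.6 per 10 kb against 9.15 on 3R, and replicate 2 had 33, or 5.16 against 6.12. The strongest was 33.0 in replicate 1, at 11 bp upstream of a start site, and 46.2 in replicate 2, at 1089 bp upstream of another, so the libraries did not share a leading position. The other joint list had 1 summit for Syp, 1471 bp upstream of the gene, with a signal of 55.8 (rank 4849). Read depth is unknown, so whether weak binding at Syp was missed or absent cannot be told. The nearest main-list summit beyond the window was 11.3 kb past the gene, with a signal of 264.

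The translational repressors msi and brat held the strongest sites of the group. msi (FBgn0011666; 3R, 25516118 to 25608423, plus strand) had a summit 233 bp upstream of the start shared by 4 of its 7 transcripts. It had the highest signal of the group, 1119 in the main list (rank 33), with 527 in replicate 1 (rank 38) and 599.8 in replicate 2 (rank 30), and the libraries' summits lay 14 bp apart. By strongest promoter signal msi stood at place 38 of 2383 bound genes, and the nearest start of another gene, CG5111, was 9610 bp from the summit. There were 2 weak intronic summits, 15.9 kb and 23.5 kb from the first start, with signals of 97.7 and 70.3. Of these the former was in the own list of replicate 2 at 60.3, and the latter in neither. The other start sites of msi, from 2205 bp into the gene onwards, had no main-list summit within 500 bp.

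brat (FBgn0010300; 2L, 19133816 to 19179758, plus strand) was not bound at a promoter under the 500 bp limit, but its strongest summit had the second-highest signal of the group. It lay in an intron of the longer transcripts, 713 bp upstream of the start of the short transcript brat-RF. Main-list signal was 758 (rank 92), beside 362 in replicate 1 (rank 105) and 397 in replicate 2 (rank 88), with summits 1 bp apart. Among the 2688 main-list summits with no start site within 500 bp it ranked 28. A weak intronic summit, 2995 bp downstream of the nearest start, had a signal of 78.3 and was in neither own list. The other summit in the window, with a signal of 75.3 and in neither own list, was 79 bp from the start of AsnRS, an asparaginyl-tRNA synthetase gene, and 290 bp from that of DCTN6-p27, which encodes a dynactin subunit.

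At the first brat start, which lies opposite that of the RNA polymerase subunit gene Polr1D, a call 57 bp upstream with a signal of 47.7 was in the other joint list. It did not reach the main list. In the ranked lists the strongest call within 500 bp of a brat start had a signal of 36.1 in replicate 1 and 23.8 in replicate 2, where the intronic site had 362 and 397.

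**Figure D3:**
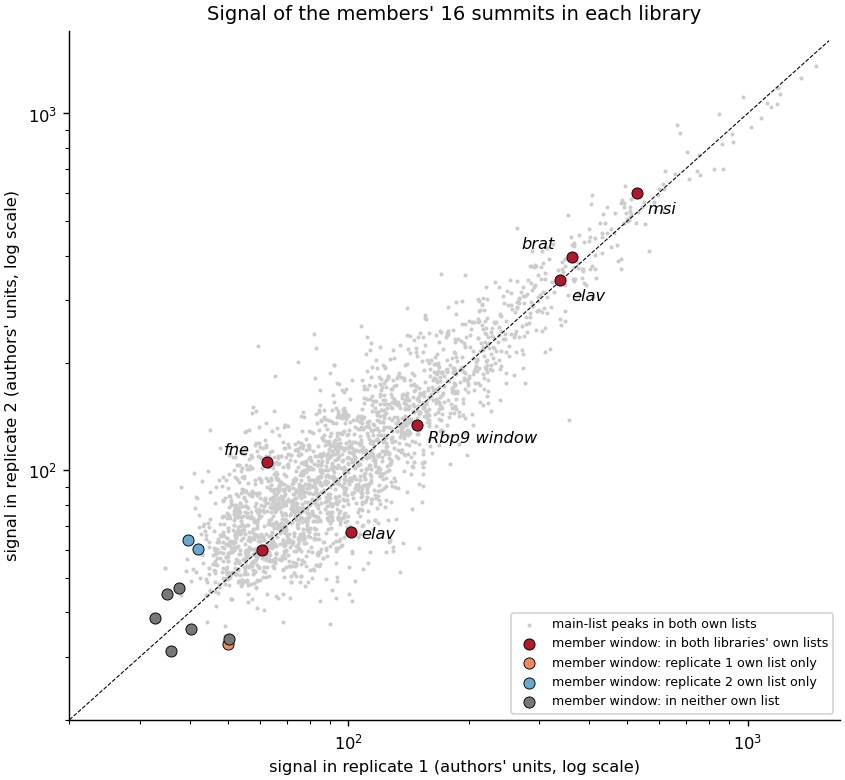
Signal in replicate 2 against signal in replicate 1 (log axes, authors' units) for the 16 summits of the 7 windows. Their signals were taken from each library's ranked calls. Grey points are all main-list peaks that both libraries listed, those of the 7 windows included. Points for msi, brat and elav lie near the dashed line of equal signal, with ratios of 0.879, 0.912 and 0.991, while the fne and elav intron sites lie on opposite sides of it.

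Presence in the libraries' own lists followed signal, as it did over the whole main list, whose signal comes from the same libraries. All 3 summits with a signal above 500 were in both own lists, as were 100% of the 218 such summits of the main list. Of the 12 summits with a signal under 200, 3 were in both, 1 in that of replicate 1, 2 in that of replicate 2 and 6 in neither, where 36.2% of the main-list summits under 200 were in both. The remaining summit, at gammaTub23C, was in both. Over all 16 this gave 7 in both (43.8%), against 50.9% of main-list summits in general, so the group as a whole was no more repeatable than the list. The median main-list signal was 105 over the 16 summits and 115 over the list.

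Both counts were set against the share of all genes. A main-list promoter summit was present at 3 of 7 genes, where 17.1% of all protein-coding genes and 24.2% of those of at least 20 kb had one. Replicate 1 gave the same 3 genes, against 12.9% of all genes, and replicate 2 gave elav and msi, against 14.1%. The genes have 2 to 5 start sites each, and with 7 genes chosen with earlier results known no test was made. The count depended on the limit: it was 1 (Imp) at 200 bp and 5 at 1000 bp, where brat and Rbp9 joined. With the other joint list it was 5, where fne and brat joined. The shares of all genes under these settings were not computed, so the counts cannot be set against them.

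A summit anywhere in the gene body and 5 kb on either side was present at 6 of 7 genes, against 45.3% of all genes and 66.2% of genes of at least 20 kb. It was 6 of 7 in replicate 1 and in replicate 2 as well, where 36.1% and 38.9% of all genes had one. In both of these lists Rbp9 was counted only through the summit at the gammaTub23C start. The share among long genes was not computed for the single libraries. All 7 are longer than most genes, with between 0.737% and 10.7% of protein-coding genes longer than they are. elav (14.0 kb) and Rbp9 (13.7 kb) are nevertheless under 20 kb, so the share of long genes is not matched to them. Per length, the windows held 0.445 main-list summits per 10 kb against 0.342 over the chromosome arms, a ratio of 1.30. The ratio was 1.02 in replicate 1 and 1.41 in replicate 2, so an excess over the arms was not seen in both libraries. These pooled ratios include the summits at neighbours' start sites and were not computed without them. By gene, the main-list density relative to the gene's own arm ran from 0 at Syp through 0.552 at fne, 0.875 at msi, 1.51 at brat and 1.98 at elav to 2.38 at Rbp9 and 2.55 at Imp. The Rbp9 and brat values include the summits at the gammaTub23C and AsnRS starts, and without these they were 1.19 and 1.01. In the libraries' own lists brat was below its arm, at 0.761 in replicate 1 and 0.655 in replicate 2, each from 1 summit. elav was at 3.05 and 2.56, Imp at 1.58 and 3.30, and Rbp9, with the neighbours' site, at 1.80 and 1.55. The Imp value in replicate 2 counted the overlapping peaks of signal 67.6 and 4.80 separately. fne was below its arm in replicate 1 (0.853) and above it in replicate 2 (1.43), and msi was below in both (0.465 and 0.835). msi thus had the highest signal of the group at a density below its arm in the main list and both libraries.

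**Figure D4:**
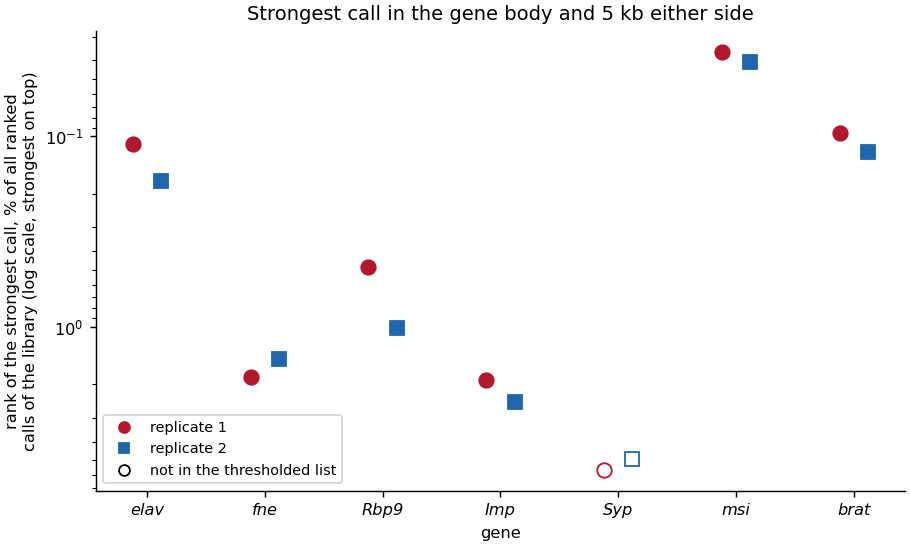
Rank of the strongest call in each gene's window, as a percentage of all ranked calls of the library on an inverted log axis, for replicate 1 (circles) and replicate 2 (squares). Open symbols are calls outside the thresholded list, which is the case for both Syp values (5.62% and 4.94%), and the Rbp9 values are those of the gammaTub23C site. msi (0.0362% and 0.041%), brat and elav lie above the other genes in both libraries.

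Promoter binding was also counted in other lists of genes of the same biology. Of 33 further genes for RNA-binding proteins, with a median length of 17.4 kb, 11 (33.3%) had a main-list promoter summit. The share was 17.1% of all genes and 24.2% of those of at least 20 kb. In each library's own list 7 had one, against 12.9% of all genes in replicate 1 and 14.1% in replicate 2. In both own lists 4 had one, against 1507 of all 13968 genes. The strongest in the main list were at orb, a CPEB-type translational regulator (signal 393), and shep, which acts in neurons (329). Next came glo (158), the sex determination switch gene Sxl (115), the splicing factor gene mbl (107) and Hrb98DE (95.9). The first 4 were in both own lists, Hrb98DE was in that of replicate 1 and mbl in neither. Compared with these, msi and elav had stronger promoter signals, at 1119 and 678. In the wider windows 22 of the 33 genes (66.7%) had a summit, against 45.3% of all genes and 66.2% of genes of at least 20 kb, so the share was near that of long genes. There were 8 at shep, which spans 122 kb, and 6 at pum, which encodes a translational repressor that works with Brat.

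A further list held 25 genes for temporal factors, neuroblast regulators and known targets of ELAV or Brat. Of these, 3 (12%) had a main-list promoter summit, against 17.1% of all genes and 24.2% of those of at least 20 kb. They were numb, an inhibitor of Notch signalling segregated in neuroblast division (signal 366, in replicate 1 at 184 and in replicate 2 at 187), klu (280.5, with 74.8 in replicate 1 and 201 in replicate 2) and dac (156, in the own list of replicate 1 alone). In each library's own list 3 of the 25 had a promoter summit, against 12.9% of all genes in replicate 1 and 14.1% in replicate 2. With so few genes these counts were near the shares of all genes and are not read as a deficit. In the wider windows 15 of the 25 (60%) had a summit, between the 45.3% of all genes and the 66.2% of long genes. Among them were chinmo, a temporal identity gene regulated by Imp and Syp, and Nrg, an ELAV splicing target, with 4 each. A promoter summit was absent at both.

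Of 9 short motifs searched on both strands in the same windows around the summits, 7 were in none of the 16. These were the Zelda site CAGGTAG, the E-box CAGCTG, then the DRE-type site TATCGATA and the shorter CGATA contained in it, the M1BP-type site GGTCACA, the Grainyhead site AACCGGTT and the repeat CACACACA. Over all main-list windows these were held by between 0.149% (AACCGGTT) and 13.5% (CGATA). The GAGA factor site, GAGAG, was in 4 windows, those of the elav intron site, the strong brat site, the Rbp9 intron site and the Imp site of signal 112, against 10.6% of all main-list windows and 13.2% of windows 500 bp to the right. The motif GGGGGG was in 2 windows, at the Imp site of signal 53.9 and at the AsnRS site in the brat window, against 2.26% of all.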

How the data were processed

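Per the labels, chromatin of whole embryos was sonicated to fragments of 200 to 800 bp. Per the deposited descriptions, peaks were called on dm6 with a control alignment as a further input. Software for alignment and peak calling was not named in what was used here. Signal, the score (at least 830 in the thresholded lists) and the -log10 q-values are the authors' deposited values. Their signal was used for ranking, their score to tell thresholded from other calls, and their -log10 values were not tested again.

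Summits (peak start plus offset, written counting from 1) on the arms were set against Ensembl release 115 gene models (BDGP6.54, the same assembly as dm6), without transposable elements, in Python 3.11.15 with numpy 2.4.6, pandas 2.3.3 and matplotlib 3.10.9. A main-list peak was in a library's own list when the intervals overlapped by at least 1 bp. The overlap counts were tested on simulated data with planted summits. The 7 genes, the lists of other genes and the motifs were chosen with earlier results of these data known. Named are the 7 genes, genes with a start site within 500 bp of a summit in their windows, and up to 6 promoter-bound genes of each other list by signal. pum, chinmo and Nrg, and the nearest gene to the msi summit, were named after their values were seen, as was Polr1D. Of the other lists' 59 symbols, let-7-C did not match, and nos was matched as nanos. GC content and runs of A or T were examined after the peaks were seen. With 1 group there was no comparison between conditions and no test.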

Additional observations from a re-analysis of the deposited data

How the results depend on the processing

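No paired analysis was possible because there is 1 group. The number of genes with a promoter summit, 3 in the main list, was 5 with the other joint list, 1 with a limit of 200 bp and 5 with a limit of 1000 bp. It was 2 to 3 when 1 library was left out and the own list of the other was used, and 2 (elav and msi) with the upper 50% of the list by signal or the first start site alone. The number of genes with a summit in the wider window was 6, or 7 with the other joint list. It stayed at 6 with gene bodies alone, 10 kb flanks, the upper 50%, summits merged within 1 kb and each library alone. With the upper 50% and each library alone, Rbp9 was counted only through the summit at the gammaTub23C start. Apart from each library alone, the shares of all genes under these alternatives were not computed for either count. The 16 summits fell to 7 with the upper 50%, were 8 to 13 with 1 library left out, and ranged from 12 to 21 under the other alternatives. Of 57 values for single genes, 20 moved by more than 1.5 times or from 0. Unknown depth limits what can be said of calls below the threshold, at Syp above all.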

Other observations

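After the values were seen, the windows of 50 bp on either side of the summits at the strong sites of elav, msi and brat were compared for words of 7 bases. 0 words were common to all 3 sites, and 14 were shared by a pair of them. Of these, 8 consisted of A and T alone, such as AAAATAT in elav and brat, which 14.5% of all main-list windows and 6.98% of windows 500 bp to the right also held. Another 6 held a G or C. The word AGATACA of msi and brat was in 2.34% of main-list windows and 2.02% of those to the right, and TGATAAA of the same pair was in 2.51% and 2.40%. Peak widths were 312, 304 and 282 bp at the strong msi, elav and brat sites and 167 bp at the gammaTub23C site. The other 12 peaks each spanned 350 bp. How common that width is in the main list was not examined, so it is not read as a property of the sites.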
